A study of Drosophila melanogaster with 2 samples.

Results

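The genes examined here encode actins, tubulins, the proteins that assemble actin filaments, and the structural proteins of muscle. They were chosen as a list of 42 genes, and 41 of these carried a symbol present in the annotation of genome build dm6, out of 13945 protein-coding genes in all. Unc-89, which encodes the muscle protein obscurin, was absent under that symbol and was left out. Sry-delta, the zinc finger product of the fly gene serendipity delta, was mapped by chromatin immunoprecipitation and sequencing (ChIP-seq) in 1 group of 2 libraries, labelled biological replicates 3 and 4. Both came from whole embryos of mixed sex aged 0 to 24 hours, from a transgenic line that stably expresses the protein fused at its C-terminus to the green fluorescent protein (GFP), and an antibody to GFP was used for the precipitation. The sources used here do not give the regulatory sequence that drives the transgene or the state of the endogenous gene. No control library was analysed here and there was no contrast between conditions, so the values below are descriptions without a test. RNA was not measured, and the tissue classes of the genes come from general knowledge of the fly.

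Actin filaments and microtubules are built in every cell from small families of near-identical proteins. In the fly some genes of each family serve all cells, while paralogs serve a muscle type, the testis or the egg. Muscle adds thick filaments of myosin, a regulatory layer of tropomyosin and troponin on the thin filament, and scaffold proteins at the Z-disc, where thin filaments are anchored. In whole embryos, binding in few cells and weaker binding in many cells cannot be told apart.

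A gene was counted as having a peak when a summit of the optimal peak set (6318 peaks, those that passed the authors' reproducibility step) lay within 500 bp of any of its start sites. All 13 ubiquitous genes had such a summit, against 2 of 19 muscle genes. The corresponding shares were 100% (95% Clopper-Pearson interval 75.3 to 100) and 10.5% (1.30 to 33.1), while 39.0% of all protein-coding genes had one. Over the whole list the count was 18 of 41 (43.9%), close to that background, so the list as a whole did not stand apart and the split lay between its classes. Of 3 genes used in muscle and in other tissues, 2 had a peak, as did 1 of 2 maternal genes. The testis gene betaTub85D and 3 tubulin genes of other restricted tissues (alphaTub85E, betaTub60D and betaTub97EF) had none. The intervals cover counting error over genes only, and the small classes leave them wide.

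**Figure D1:**
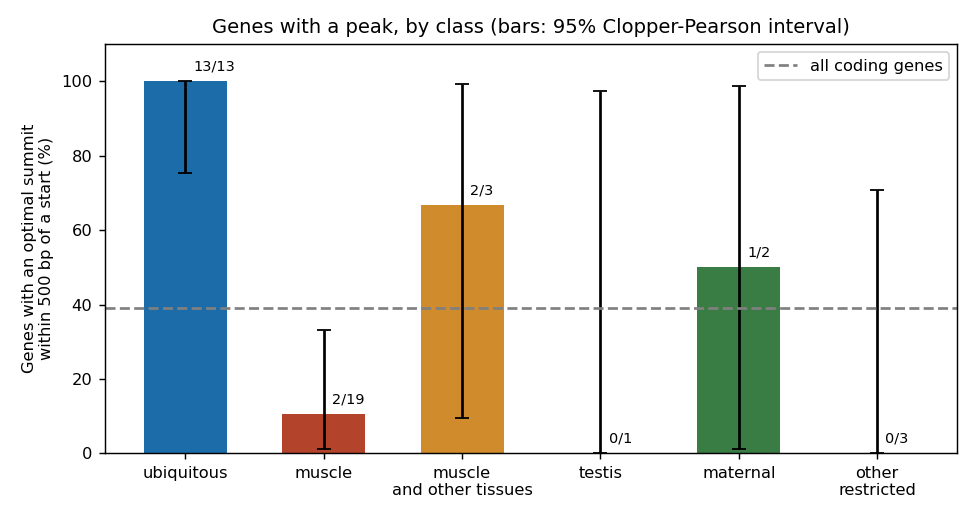
Share of genes in each class (%, bars, with 95% Clopper-Pearson intervals as error bars) that had an optimal summit within 500 bp of a start; the numbers give genes with a peak over genes in the class, and the dashed line marks the 39.0% of all coding genes. The ubiquitous bar stands at 13 of 13 and the muscle bar at 2 of 19, on opposite sides of that line.

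Bases upstream of the start are shown for genes that span this split, read from the Release 6 (dm6) genome along the coding strand of each gene and outside annotated exons. Capitals mark exact matches on either strand. They are the core promoter box spelled TATAAA, the element of the GAGA factor, and the binding element of the factor DREF (the DRE), spelled TATCGATA, or the shorter form contained in it, ATCGATA. In alphaTub84B they also mark a match to the published in vitro consensus of Sry-delta with 2 mismatches. The first set holds ubiquitous genes with a peak. The alphaTub84B stretch ends at the base before the start, and its summit lies 89 bp upstream. The alphaTub84D stretch runs from 450 to 340 bp upstream and holds its summit 385 bp upstream, between the starts of alphaTub84D and Rtnl2. The Mlc-c stretch fills the 108 bases between the divergent starts of Mlc-c and Pop1. The Act5C stretch ends at the base before its upstream start.
alphaTub84B, chr3R:7086469-7086598, plus strand: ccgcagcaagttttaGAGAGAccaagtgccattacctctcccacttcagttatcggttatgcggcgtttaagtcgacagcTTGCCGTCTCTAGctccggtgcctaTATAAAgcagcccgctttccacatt
alphaTub84D, chr3R:7530303-7530413, plus strand: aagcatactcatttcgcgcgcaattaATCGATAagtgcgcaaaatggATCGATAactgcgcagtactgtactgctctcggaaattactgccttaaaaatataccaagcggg
Mlc-c, chrX:5622540-5622647, minus strand: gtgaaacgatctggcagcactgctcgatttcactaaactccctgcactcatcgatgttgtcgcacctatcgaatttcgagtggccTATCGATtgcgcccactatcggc
Act5C, chrX:5900731-5900860, plus strand: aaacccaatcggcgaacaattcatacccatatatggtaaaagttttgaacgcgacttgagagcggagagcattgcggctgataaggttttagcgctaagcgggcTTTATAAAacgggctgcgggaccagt

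The next set holds 2 maternal genes and a muscle gene, each ending at the base before the start. The gammaTub37C peak lies further upstream than the stretch shown, and alphaTub67C and Act88F had no summit in any list. In capitals are a DRE in both maternal genes and a TATA box in Act88F. A match of gammaTub37C to the Sry-delta consensus, with 2 mismatches, begins 9 bp upstream. It runs past the end of the stretch and is not in capitals.
gammaTub37C, chr2L:19185727-19185856, minus strand: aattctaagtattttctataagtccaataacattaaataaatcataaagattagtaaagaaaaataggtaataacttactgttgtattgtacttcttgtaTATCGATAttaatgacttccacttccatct
alphaTub67C, chr3L:9681138-9681267, plus strand: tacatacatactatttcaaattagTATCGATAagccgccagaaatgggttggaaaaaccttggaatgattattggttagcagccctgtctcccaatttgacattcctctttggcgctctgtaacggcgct
Act88F, chr3R:15439839-15439968, plus strand: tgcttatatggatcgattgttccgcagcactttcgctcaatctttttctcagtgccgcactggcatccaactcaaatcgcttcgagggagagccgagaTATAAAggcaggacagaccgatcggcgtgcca

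The TATA boxes of alphaTub84B and Act88F begin 25 and 32 bp upstream of the start, so the gene with the highest signal of the list and a gene without a summit both carry one. The DRE of alphaTub67C begins 106 bp upstream, without a summit.

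The alpha-tubulin gene alphaTub84B, the major ubiquitous one, had the highest signal of the list. Signal denotes the height that the authors assigned to a peak, with 1 scale per list, so pooled and replicate values are not comparable with each other. It was 1803 in the pooled list, where it ranked 356 of 30000, with 840 (rank 330) in replicate 3 and 966 (rank 387) in replicate 4. The peak spanned chr3R:7086101-7086834 with its summit 89 bp upstream of the start, and the start of Tailor, a terminal uridylyltransferase gene, lay 516 bp upstream of that of alphaTub84B. Its ubiquitous paralog alphaTub84D had a far weaker peak, with a pooled signal of 131 (rank 5147), 55.5 in replicate 3 and 78.4 in replicate 4. That summit was 127 bp from the start of Rtnl2, a reticulon-like gene, and 385 bp from alphaTub84D itself. The other alpha-tubulin genes had no optimal peak. The maternal alphaTub67C had no summit in any list, and alphaTub85E had a weak pooled summit of 41.0 (rank 12941), listed in replicate 3 and absent from replicate 4 in this window.

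Among the beta-tubulins only betaTub56D, which serves the egg and most embryonic cells, had an optimal peak. Its pooled signal was 271 (rank 2826), with 126 in replicate 3 and 149 in replicate 4, and the summit lay 45 bp upstream of the start. The paralogs fell far lower. betaTub60D, which is used in developing muscle among other tissues, had a pooled summit of 40.5 (rank 13110). betaTub97EF had a summit of 14.1 in replicate 4 alone, and the testis gene betaTub85D had none in any list.

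Both gamma-tubulins, which nucleate microtubules, had a peak, and the highest summit of each lay closer to a neighbour. The ubiquitous gammaTub23C had a pooled signal of 422 (rank 1917), with 150 in replicate 3 and 271 in replicate 4. Its highest summit was 360 bp upstream of the gene and 23 bp from the start of Rrp1, a DNA repair gene. There were 2 optimal summits in the gammaTub23C window. The gene stayed counted when only the nearest coding start of each summit was used. The maternal gammaTub37C had 102 (rank 6247), the lowest optimal signal of the list, with 29.1 (rank 9328) in replicate 3 and 66.4 (rank 6105) in replicate 4. The summit lay 300 bp from its start and 17 bp from that of pigeon.

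The actin genes divided by tissue. Both cytoplasmic actins had an optimal peak and the 4 muscle actins had none. Act42A had a pooled signal of 631 (rank 1357), with 273 in replicate 3 and 352 in replicate 4, at 79 bp upstream of the start. No start of another coding gene lay within 1000 bp of it. Act5C had only 113 (rank 5765), with 51.0 in replicate 3 and 72.6 in replicate 4, at 430 bp upstream. That summit was the lesser of a pair in 1 region, and the higher summit of 318 (rank 2489) lay 658 bp upstream, outside the window, with Act5C still the nearest coding gene. Of the muscle actins, Act87E alone had a summit in the pooled list, with a signal of 27.6 (rank 19574). Act57B, Act79B and Act88F, the last of which builds the flight muscles, had none in the pooled or replicate lists.

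All 4 genes for actin assembly had a peak, over a range of pooled signals from 129 to 738. Arp3 and Arp2 encode paired subunits of the complex that starts branched filaments. Arp3 had 738 (rank 1187), with 288 in replicate 3 and 446 in replicate 4, but its summit lay 199 bp from its own start and 78 bp from that of the importin gene msk. Arp2 had 170 (rank 4161), with 60.5 and 106 in replicates 3 and 4, and its summit was 5 bp from its start with no other coding start within 1000 bp. 2 further optimal summits lay in introns of Arp2, of 130 and 138. The cofilin gene tsr, whose product severs filaments, had 129 (rank 5212) at 30 bp upstream, with 46.8 and 80.9 in replicates 3 and 4. A peak in an intron of tsr, 1407 bp downstream of the start, was higher, at 381 (rank 2092). For chic, the profilin gene, the summit 26 bp downstream of the start had 134 (rank 5082), with 78.3 in replicate 3. Replicate 4 had no summit within 100 bp of it. The highest replicate 4 summit in the window, of 53.5 (rank 7164), lay 68 bp downstream of another of the 3 chic starts. The pooled summit belonged to a region whose higher summit, of 1895 (rank 316), lay 629 bp upstream of chic and closest to eIF4A, the gene of a translation initiation helicase. Introns of chic held 2 more optimal summits, of 138 and 121.

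Nonmuscle myosin II consists of a heavy chain (zip), a regulatory light chain (sqh) and an essential light chain (Mlc-c), and all 3 genes had a peak. Mlc-c was second in the list with 1521 (rank 482), and the replicates gave 768 and 759. Its summit lay 53 bp from its own start and 56 bp from that of Pop1, an RNA-processing gene. zip had 666 (rank 1297), with 307 and 375 in replicates 3 and 4, at 122 bp upstream of the nearest of its 3 starts. The sqh value was the least even. It was 152 (rank 4549) in the pooled list, 441 bp from sqh and 66 bp from dtn, with 102.6 in replicate 4. In replicate 3 the highest summit in the window had only 13.4 (rank 23654), while a summit of 66.1 (rank 4570) lay within 100 bp of the pooled one but beyond the window. The muscle myosin genes had no optimal peak. Mhc had a pooled signal of 42.2 (rank 12610) and Mlc2 22.6 (rank 24142), and Mlc1 had no summit in any list.

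Of 7 tropomyosin and troponin genes of muscle, none had an optimal peak. Tm2 had a pooled signal of 31.5 and up, the troponin T gene, 19.6. For wupA (troponin I) and TpnC47D (a troponin C) the only summit was in replicate 3, and TpnC41C, TpnC73F and TpnC25D had none in any list. Tm1, which makes both muscle and cytoplasmic tropomyosins from different promoters, did have a peak, of 404 (rank 1997) with 163 and 239 in replicates 3 and 4. It had an optimal summit at 3 of its 8 starts. The highest lay at the start at position 15288012 of arm 3R, and the starts at 15278220 and 15286419 had 177 and 144. A start of the coding gene MRG15 lay 111 bp from a start of Tm1, but no other coding gene shared the highest summit.

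Both muscle genes with a peak were sarcomere scaffold genes. sls encodes the titin-like protein of the fly, and its pooled signal was 169 (rank 4189), with 56.5 in replicate 3 and 112 in replicate 4, at 274 bp upstream and far from any other coding start. Zasp66, a Z-disc gene, had 152 (rank 4556), with 67.9 in replicate 3 and no summit in replicate 4. That summit lay 441 bp from Zasp66 and 29 bp from GAPsec, and a higher intronic summit of 223 lay 30 bp from a start of Cdc6. Actn, the alpha-actinin gene, used in muscle and elsewhere, had 104 (rank 6137), with 38.3 and 65.1 in replicates 3 and 4, at 112 bp upstream of a start that the annotation also gives to usp, the gene of a nuclear receptor. An intronic region of Actn held a much higher summit of 1123 (rank 728), nearest to another usp start. The Z-disc gene Zasp52 had 55.8 (rank 9879) in the pooled list, the value nearest below the optimal set, whose lowest member here was gammaTub37C with 102. An optimal summit of 134 lay in an intron of Zasp52, nearest to tun. The thick filament genes bt (the projectin gene) and Mf (myofilin) had pooled signals of 31.4 and 28.3, and Mp20, a calponin-like gene, had a summit in replicate 4 alone.

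**Figure D2:**
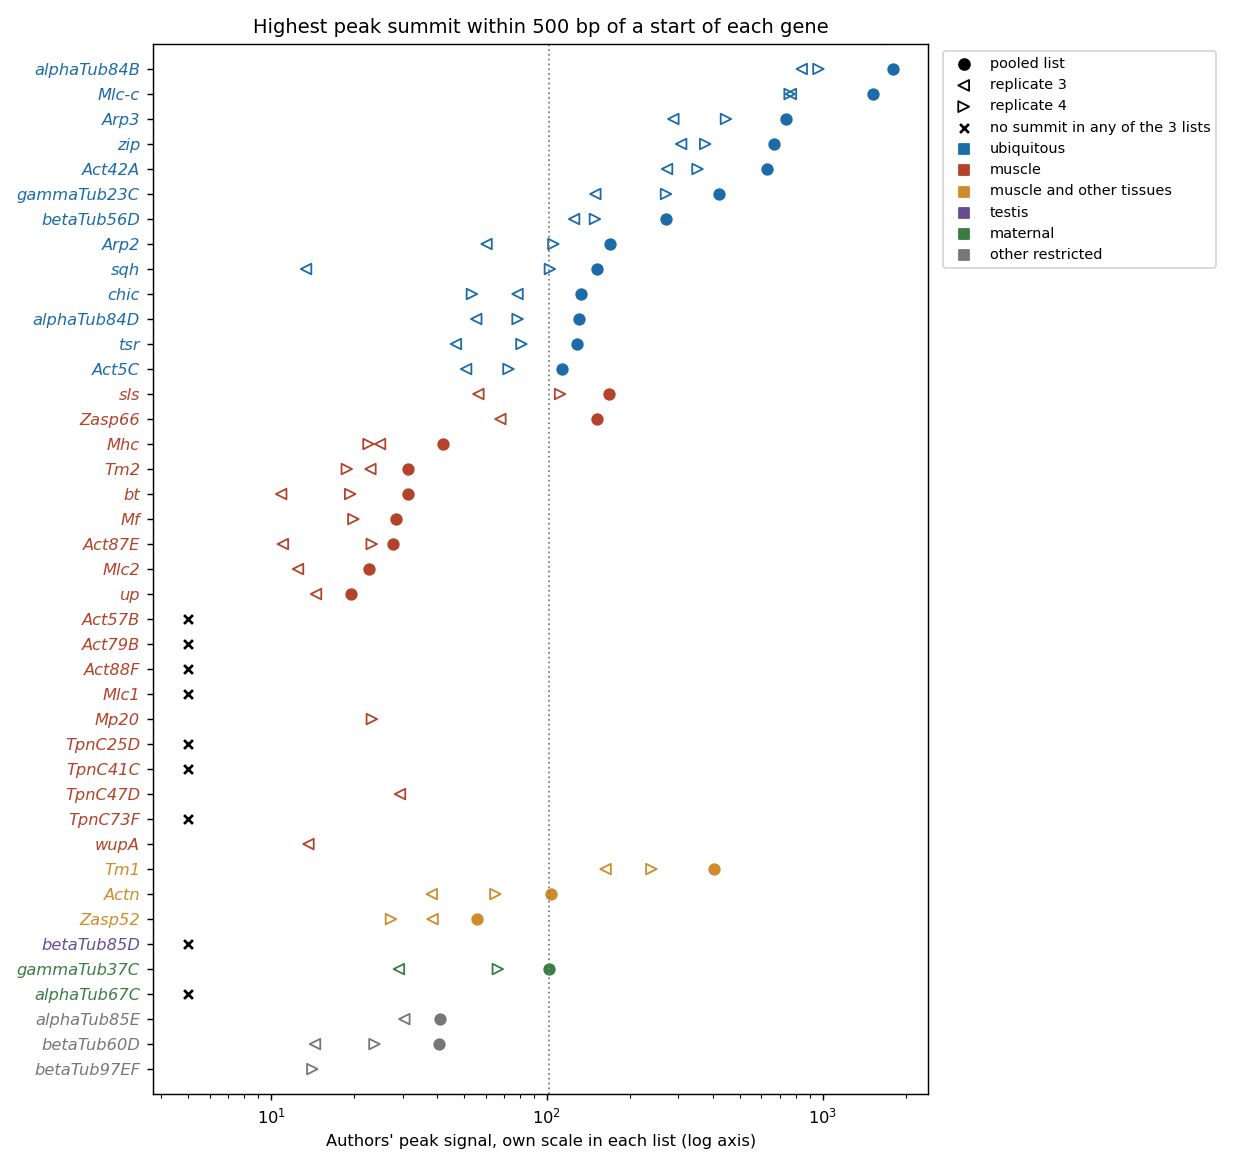
Highest summit within 500 bp of a start of each of the 41 genes, as the authors' peak signal on a log axis, with a scale of its own in each list; filled circles are the pooled list, triangles the replicates, colours the classes, crosses (placed at the left edge, not at a value) genes with no summit in any of these lists, and the dotted line the lowest optimal signal among these genes. Filled circles of ubiquitous genes lie to the right of the line, and those of muscle genes other than sls and Zasp66 to its left. This restates the counts of optimal peaks, since the optimal set held the pooled peaks of highest signal. Replicate triangles have other scales, and those of several ubiquitous genes lie to the left.

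Across the list, 23 genes had no optimal peak. Of these, 10 had a weaker pooled summit of at most 55.8, 4 had one in a single replicate list and 9 had none. When every pooled peak was counted, the muscle genes reached 9 of 19 against 58.1% of coding genes, and the whole list 28 of 41. The ubiquitous genes had a summit in both replicates within the window in 13 of 13 cases, but for sqh in replicate 3 and chic in replicate 4 it was not within 100 bp of the pooled summit. Among the 18 genes with an optimal peak the median signal was 169, against 386 over all 5445 coding genes with one, and 6 of them fell below the lower quartile of optimal signals (145) and 5 above the upper (532). Where summits in the replicates lay within 100 bp of the pooled one (16 genes), the log2 ratio of replicate 4 to replicate 3 had a median of 0.59 and ran from -0.016 to 1.19. Over the 6081 of 6318 optimal peaks with such summits it was 0.47 ± 0.62 (median and SD), so these 16 genes lay within the spread of those peaks. The ratio leaves out chic and Zasp66, which had no replicate 4 summit within 100 bp of the pooled one.

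Position relative to neighbouring genes differed between the classes. A start of another coding gene lay within 1000 bp of 10 of the 13 ubiquitous genes and of 2 of the 19 muscle genes. Over all coding genes this held for 5985 of 13945. With such a neighbour 14 of 15 listed genes had a peak, against 61.9% of all coding genes with one, and without it 4 of 26, against 21.9%. Among genes lacking a neighbour, all 3 ubiquitous ones (Act5C, Act42A and Arp2) had a peak and 1 of 17 muscle ones (sls) did. Among genes with a neighbour, 10 of 10 ubiquitous ones and 1 of 2 muscle ones (Zasp66) had a peak. With only 3 ubiquitous genes lacking a neighbour and 2 muscle genes having one, the part of neighbours in the class counts was not tested. The optimal summit was shared with another coding gene in 10 of the 18 genes with a peak, and 12 of the 18 were the nearest coding gene to it. Neither share was computed over the 5445 coding genes with a peak, so neither can be called particular to this list. When only the nearest coding start of each summit was counted, 10 of 13 ubiquitous genes and 1 of 19 muscle genes remained, against 30.2% of coding genes.

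**Figure D3:**
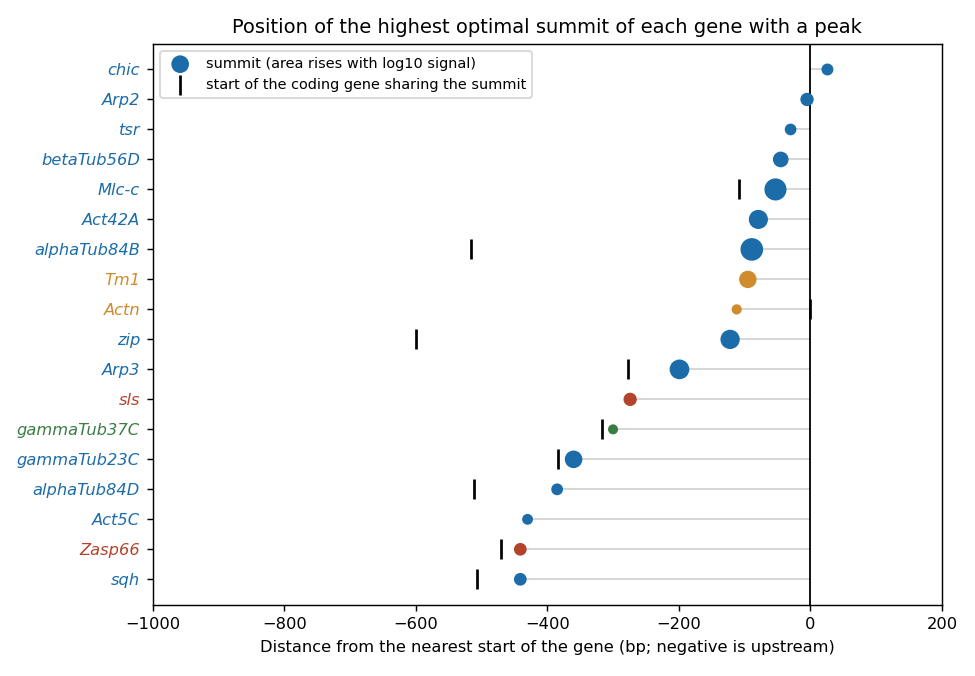
Position of the highest optimal summit of each of the 18 genes with a peak, in bp from the nearest start of the gene (negative is upstream); circles are summits, their area rising with log10 signal and coloured by class as in the plot of signals, and black ticks mark the start of the nearest coding gene sharing the summit. Every summit but that of chic is upstream, and the distant ones of gammaTub37C, gammaTub23C and Zasp66 sit beside a neighbour's start.

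The summits lay upstream in 17 of the 18 genes, at a median of 117 bp before the start, while over all coding genes with a peak 88.1% were upstream with a median of 61 bp. They were within 100 bp in 8 genes and beyond 250 bp in 7. Widening the window to 1000 bp added no gene. Genes with more than 1 start had a peak more often in general (53.6%, against 33.8% of genes with a single start).

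Promoter sequences were searched from 250 bases before to 50 after the most upstream start. Motif 1, a core promoter element of housekeeping genes, was present with at most 1 mismatch in 6 of 13 ubiquitous genes (Act42A, Mlc-c, alphaTub84D, betaTub56D, chic and sqh) and in 0 of 19 muscle genes, against 12.1% of all coding genes. With Tm1, 7 of the 18 genes with a peak and 0 of the 23 without one held it. TATAAA was found in 16 of 41 genes, against 45.8% of coding genes, with 7 of 13 ubiquitous and 5 of 19 muscle genes. It lay 24 to 32 bp upstream of the start in Act5C, alphaTub84B and betaTub56D and also in the muscle actins Act57B, Act87E and Act88F. The DRE (TATCGATA) occurred in 2 genes, both maternal, against 9.36% of coding genes, and only 1 of these had a peak. Its shorter form ATCGATA added Mlc-c and Tm1, against 18.2%. The Sry-delta consensus, with at most 2 mismatches, was found in alphaTub84B 50 bp upstream, in gammaTub37C 9 bp upstream and in betaTub85D 117 bp upstream, against 5.13% of coding genes, and the last of these had no summit in any list. GAGAGA (6 of 41, against 12.3%) and the muscle factor motif Mef2 (7 of 41, against 14.5%) were near their backgrounds over the list. By class, GAGAGA was in 5 of 19 muscle and 1 of 13 ubiquitous genes, and Mef2 in 4 of 19 and 1 of 13. A window of 150 bp to each side of the start left Motif 1 in 5 of the 18 genes with a peak, without Mlc-c and Tm1. Of the 23 without a peak 0 held it, against 11.65% of all coding genes. In that window Mef2 was in 2 of 19 muscle and 3 of 13 ubiquitous genes, and GAGAGA in 4 of 19 and 1 of 13.

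**Figure D4:**
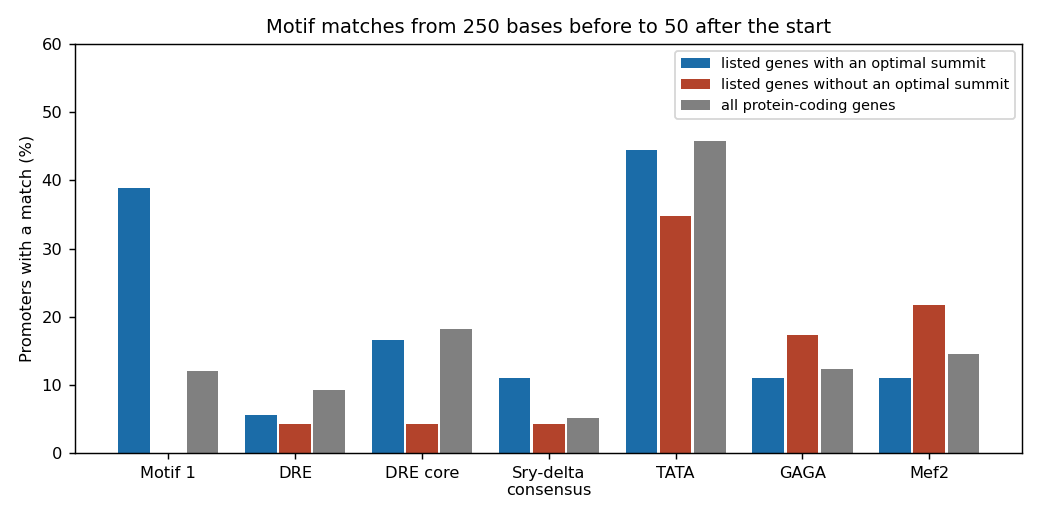
Share of promoters (%, from 250 bases before to 50 after the most upstream start) that held each motif, for the 18 listed genes with an optimal summit (blue), the 23 without (red) and all 13945 coding genes (grey). Motif 1 has a blue bar of 7 in 18 genes and no red bar, while the TATA bars are tall in every group.

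Within 100 bp of the highest summit of each of the 18 genes, no DRE was found, against 15.0% of the 6318 optimal peaks. ATCGATA was found at 4 (alphaTub84D, zip, Mlc-c and Zasp66), against 27.8%, and alphaTub84D held it at both sites printed above. Motif 1 was found at 4 summits (Act42A, betaTub56D, chic and sqh), against 13.9%, and TATAAA at 8, against 26.1%. The Sry-delta consensus was at 1, that of alphaTub84B, against 6.70%. A match describes letters in the window and not a site in use.

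A wider list of 85 genes around the same structures gave 53 with a peak (62.4%, interval 51.2 to 72.6), against 39.0% of all coding genes, with a median optimal signal of 408. Another coding start lay within 1000 bp of 45 of the 85, and of 5985 of all 13945 coding genes. Of those 5985 genes, 61.9% had a peak. The group for actin nucleation and elongation, which holds Arp2/3 and WAVE genes along with the formin, Spire and Ena genes of unbranched filaments, had 12 of 17, led by Cyfip (4371, rank 22) and HSPC300 (3101, rank 88), both of the WAVE complex, and by the Arp2/3 subunit gene Arpc1 (2161). SCAR, the gene of the WAVE protein itself, had 81.9 in the pooled list and Arpc3B 36.1, and neither had an optimal peak. Actin-binding genes also had 12 of 17, led by pod1 (3867), the cofilin phosphatase gene ssh (1832) and Abp1 (1587), with capt and cher without. Microtubule-associated genes had 10 of 17. Their leaders were the severing genes Kat60 (2917) and spas (1869) and the plus-end gene Eb1 (1858), while Klp10A and futsch had none. The gamma-tubulin complex had 4 of 7, with Grip75 at 977, Grip71 at 316 and Grip128 at 211, and Grip84 and Grip163 without. Other myosins had 6 of 10, led by the myosin VI gene jar (2681), then Myo95E (662) and the myosin V gene didum (419), and Myo10A and Myo28B1 had none. Actin-related genes had 5 of 6, led by Arp53D (1067), Arp10 (286) and Arp5 (163), with Arp1 without. The group listed as other muscle genes was not limited to muscle-restricted genes and holds the broadly used flw. It had 4 of 11 (36.4%, interval 10.9 to 69.2), near the 39.0% of all coding genes, led by flw (564), Msp300 (408) and CAP (288). The paramyosin gene Prm and the muscle LIM gene Mlp60A had no optimal peak. The named peaks of Abp1, spas, Grip71, didum, Myo95E, flw, Arp53D and Arp5 lay nearest to the start of another coding gene (Tgi, Miro, Faf2, dpa, TBC1d7, Psf3, Sod2 and CG7208 in that order).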

How the data were processed

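ChIP-seq of GFP-tagged Sry-delta was analysed from the peak lists the authors deposited for genome build dm6. Per the deposited README files, a control served in calling each list of a replicate and that of the pooled libraries, and the irreproducible discovery rate (IDR) step gave the optimal set. Peak signal is a height set by the authors. All optimal peaks had the same deposited −log10 q, which gave no rank, and the p-value column the authors deposited was unfilled. Caller, aligner and IDR threshold: not given in the sources used here. The optimal set equalled the 6318 pooled peaks of highest signal. Lists for dm3 were not used. Read totals were not analysed here, so depth is unknown. Starts came from Ensembl release 115 (annotation 6.54) on 6 arms, and sequences from the Release 6 genome; coordinates are 1-based. Distances, counts and exact Clopper-Pearson intervals (95%) were computed with Python 3.11.15, pandas 2.3.3 and SciPy 1.17.1, and checked on simulated data. Motifs were sought on both strands, and ATCGATA lies within TATCGATA. The rule for named genes was every member, and in each wider subgroup the 3 highest and the first 2 without a peak. The members and lists were chosen with earlier results of these data known.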

Additional observations from a re-analysis of the deposited data

How the results depend on the processing

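Under the alternatives the ubiquitous genes with a peak numbered 7 to 13 of 13 and the muscle genes 0 to 9 of 19. A 250 bp window gave 10 ubiquitous and 0 muscle genes (34.5% of coding genes), and so did requiring the start inside the peak (33.8%). Keeping only the highest summit of each region gave 11 ubiquitous and 2 muscle genes (38.7%). The 3159 highest optimal peaks left 8 genes, 7 ubiquitous and 0 muscle, and 34 of the wider list (26.5% of coding genes). All pooled peaks gave 28 genes and 9 muscle genes (58.1%). Counting the nearest coding start alone gave 10 ubiquitous genes and 1 muscle gene (30.2%). Counting Tm1, Zasp52, Actn and betaTub60D as muscle gave 4 of 23. Without replicate 4 or replicate 3 the list had 15 and 16 genes, the ubiquitous class 12 and 12, the muscle class 2 and 1, and the wider list 53 and 55 (38.5% and 38.6% of coding genes). Actn, gammaTub37C and sqh fell out without replicate 4, and Zasp66 and chic without replicate 3. The median rank, 4175 pooled, was 4227 and 4041 in replicates 3 and 4. Matching summits within 100 bp, chosen after seeing the data, gave 4227 and 3594, and ranking by −log10 q gave 1 for all. Ranking by −log10 p was not run because that column is unfilled. 45 of 62 alternative values stayed within 1.5 times the main count or within the spread of the values. No paired analysis was possible because there is 1 group.

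There were 2 libraries and no control library was analysed here, intervals cover counting over genes only, and weak pooled summits cannot be set apart from background at an unknown depth.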
